A study of Mus musculus with 6 samples.

Results

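The genes of insulin, IGF, FoxO and mTOR signalling were followed in the hippocampus of p300+/- mice and wild-type littermates. A list of 37 genes defined the members, and a probe set belonged to them when the platform annotation gave it exactly 1 gene symbol and that symbol was on the list. This gave 97 probe sets of 35 genes, out of 45037 probe sets tested. Rps6kb1 and Rps6ka1, which encode kinases of the S6K and RSK families, had no such probe set and were not analysed here, and 3 probe sets that name a member together with another gene (Igf2r with Airn, Foxo3 with Gm38485, Pik3r2 with Ifi30) were left out by the rule. The tested animals were heterozygous for a deficiency of p300, a lysine acetyltransferase and transcriptional coactivator encoded by Ep300, and the animals they were set against were wild-type. All were females of 3 months kept on a pure C57BL/6J background. Equal amounts of RNA from the hippocampi of 4 animals were pooled for each Affymetrix mouse expression array, with 3 arrays and thus 12 animals per genotype, so that variation between single animals is not visible and RNA of all hippocampal cells was measured together. What was done to the p300 gene in this line is not stated in the labels.

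Insulin and the insulin-like growth factors bind receptor tyrosine kinases, which act through receptor substrates (IRS proteins) and phosphatidylinositol 3-kinase (PI3K) on the kinases PDK1 and AKT. AKT keeps FoxO transcription factors out of the nucleus and relieves the brake that the TSC complex puts on the GTPase Rheb, which activates the protein kinase mTOR in its complex mTORC1. AMPK, switched on by LKB1 when energy is low, opposes mTORC1. In the brain the pathway is known for its parts in neuronal survival, protein synthesis at synapses and hippocampal neurogenesis, IGF2 is made largely by choroid plexus and meninges, and FoxO factors are themselves bound and acetylated by p300 and its relative CBP.

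The deposited log intensities, whose base is not stated and was taken as 2, have had each probe set's median over the 6 arrays subtracted. A value thus shows how arrays differ and holds no absolute level beyond a coarse class. A log2 fold change is the mean of the p300+/- arrays minus that of the wild-type arrays, tested with limma over all 45037 probe sets, and a probe set was called when its Benjamini-Hochberg adjusted p was below 0.05. Ep300 itself (1434765_at) was at -0.26, -0.22 and -0.50 in p300+/- pools and at 0.22, 0.38 and 0.40 in wild-type pools. Its log2 fold change was -0.66 ± 0.13 (SE) and was not called over all probe sets (limma, adjusted p = 0.9999). No probe set of the table was called (0%). At an unadjusted p under 0.05 there were 550 (1.22%), 347 higher (0.77%) and 203 lower (0.451%) in p300+/-, and in 2426 (5.39%) the 3 p300+/- arrays all lay beyond the 3 wild-type arrays. With no genotype difference, about 0.05 of probe sets would have such a p and about 0.1 would be separated. Both shares of the table lie below these, so neither count is a sign of change. Of 14 markers of hippocampal neurons, all measured, 10 had a probe set in the highest of 3 coarse level classes read from the values. Array standard deviations over all probe sets were 0.29 in p300+/- 3 and 0.33 in wild-type 2, against 0.18 to 0.21 in the other 4 arrays.

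To show the control regions of the members on which the values below turn, the 250 bases before a transcription start are given for Igf1, whose probe set had the smallest p among the members, for Igf2 and Igfbp2, which were low in the same wild-type pool, and for Irs1 and Irs2, the receptor substrates. Capitals mark every match, on either strand, to the FoxO element (GTAAACA), the insulin response element (CAAAACA), the E-box (CACGTG), the GC box (GGGCGG) or the cAMP response element (TGACGTCA). Sequences are from RefSeq, build GRCm38.p6, 5′ to 3′ on the gene's strand, at chr10:87860861-87861110 (plus) for Igf1, chr7:142657497-142657746 (minus) for Igf2, chr1:72824230-72824479 (plus) for Igfbp2, chr1:82291440-82291689 (minus) for Irs1 and chr8:11008930-11009179 (minus) for Irs2. Igf2 has 4 and Igfbp2 has 2 listed starts, and the start with the most matches is shown.
Igf1: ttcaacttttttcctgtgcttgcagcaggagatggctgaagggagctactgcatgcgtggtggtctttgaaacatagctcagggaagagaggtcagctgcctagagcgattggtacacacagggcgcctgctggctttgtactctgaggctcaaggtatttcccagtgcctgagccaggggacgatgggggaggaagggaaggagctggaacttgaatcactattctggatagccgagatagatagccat
Igf2: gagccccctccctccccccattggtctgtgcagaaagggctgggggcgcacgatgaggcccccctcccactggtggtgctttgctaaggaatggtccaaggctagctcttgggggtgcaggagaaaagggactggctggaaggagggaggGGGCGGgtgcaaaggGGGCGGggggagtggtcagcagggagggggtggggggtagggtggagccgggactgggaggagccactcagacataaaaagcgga
Igfbp2: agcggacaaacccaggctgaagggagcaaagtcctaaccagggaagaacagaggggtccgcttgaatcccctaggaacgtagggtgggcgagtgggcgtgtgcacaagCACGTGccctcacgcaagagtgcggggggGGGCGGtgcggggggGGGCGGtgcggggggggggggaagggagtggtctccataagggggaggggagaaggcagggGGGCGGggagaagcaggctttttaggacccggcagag
Irs1: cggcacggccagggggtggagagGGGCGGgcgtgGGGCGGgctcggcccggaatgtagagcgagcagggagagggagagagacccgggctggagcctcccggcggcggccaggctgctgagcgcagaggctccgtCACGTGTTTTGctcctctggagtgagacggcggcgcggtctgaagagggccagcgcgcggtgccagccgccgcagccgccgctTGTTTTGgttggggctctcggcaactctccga
Irs2: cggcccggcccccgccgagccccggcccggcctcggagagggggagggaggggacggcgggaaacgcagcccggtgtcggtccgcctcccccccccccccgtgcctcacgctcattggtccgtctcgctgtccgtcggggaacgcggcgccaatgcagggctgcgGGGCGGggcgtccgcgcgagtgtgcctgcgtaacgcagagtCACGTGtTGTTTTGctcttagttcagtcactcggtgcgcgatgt
No match lay in the Igf1 window. Igf2 held 2 GC boxes and Igfbp2 held 3, with an E-box in addition. Irs1 held 2 insulin response elements and Irs2 held 1, in each case read on the opposite strand as TGTTTTG, and each gene also held an E-box, of which 2 bases in Irs1 were shared with an insulin response element. Insulin response elements are the sites through which FoxO factors are known to act on insulin-repressed genes. Among the 48 promoters listed for 35 of the members the insulin response element occurred in 2 (4.17%), those of Irs1 and Irs2, against 5.56% of all 32851 promoters. The E-box occurred in 5 (10.4%, against 6.02%), the GC box in 27 (56.3%, against 32.7%), the FoxO element in 1, a promoter of Akt1 (2.08%, against 3.17%), and the cAMP response element in 0 (against 1.55%). A match only describes the letters of these windows.

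No member was called between genotypes. Of the 97 probe sets 49 had higher and 48 had lower values in p300+/- pools, with a median log2 fold change of 0.0010, against 0.0057 over all probe sets, of which 51.7% were higher. The smallest adjusted p among the members was 0.9999 (limma). A single member probe set, of Igf1, had an unadjusted p under 0.05, or 1.03% of the members, beside 1.22% of all probe sets. The genotypes did not overlap in 3 member probe sets (3.09%, beside 5.39% of all), 2 higher (Igf1 and Akt1; 3.19% of all probe sets were separated that way) and 1 lower (Igfbp7; 2.2% of all). Both shares lie near or below those of the whole table. The members' log2 fold changes ran from -0.38 to 0.60, and the median size of a change was 0.099, beside 0.089 over all probe sets. The median 95% interval of a member reached 0.39 to either side, so a change smaller than that in a typical member could not be told from 0 with these arrays. These intervals are not adjusted for the number of probe sets. A larger change need not be called either, as Ep300 at -0.66 was not. Of 26 members read by more than 1 probe set, 21 had probe sets on both sides of 0, 3 (Igf2, Akt2 and Sesn2) had only positive and 2 (Igfbp3 and Pdpk1) only negative log2 fold changes.

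**Figure D1:**
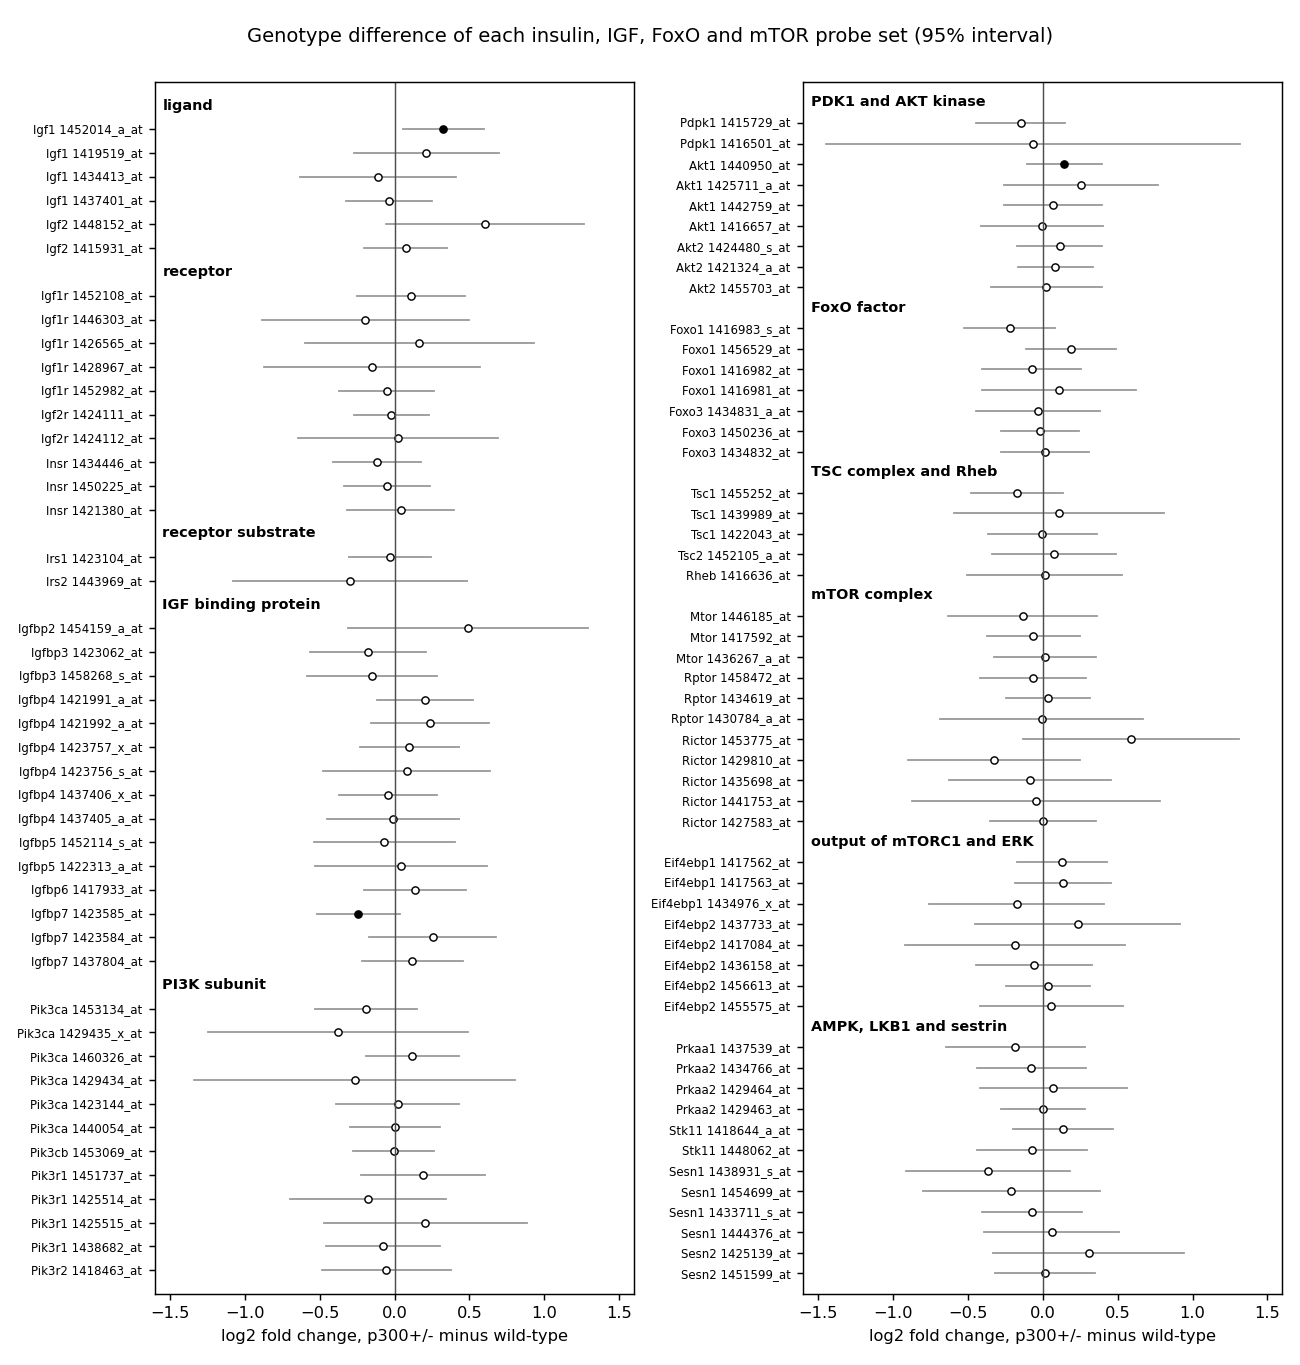
Log2 fold change, p300+/- minus wild-type, of each of the 97 member probe sets (points) with its 95% interval from limma (lines), grouped by role. Filled points are the 3 probe sets in which the genotypes did not overlap, and the interval of the Igf1 probe set 1452014_a_at, from 0.057 to 0.60, is the only interval that lies to one side of 0.

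Of all members, the ligand Igf2 had the largest difference and the ligand Igf1 the smallest p, and neither was called. Igf1, a growth factor made in adult brain by interneurons and microglia among other cells, was read by 4 probe sets. In 1452014_a_at it was at 0.068, 0.12 and 0.21 in p300+/- pools and at -0.24, -0.068 and -0.27 in wild-type pools, so that all p300+/- values lay above all wild-type values. The log2 fold change was 0.33 ± 0.12 (SE), or 1.25-fold, with a 95% interval of 0.057 to 0.60 (limma, unadjusted p = 0.0237, adjusted p = 0.9999). The other probe sets of Igf1 did not share this separation. In 1419519_at the values were -0.085, 0.085 and 0.24 in p300+/- and -0.25, 0.31 and -0.46 in wild-type pools, giving a log2 fold change of 0.21 ± 0.21 (SE). Those of 1434413_at and 1437401_at were -0.11 ± 0.22 and -0.036 ± 0.12 (SE), and the mean over the 4 probe sets was 0.098. Beside this, the mean of 10 microglia markers, of 11 listed, was -0.020, -0.058 and 0.26 in p300+/- and -0.12, 0.13 and -0.060 in wild-type pools, and that of 10 interneuron markers was -0.018, 0.086 and 0.22 in p300+/- and -0.029, 0.0094 and -0.034 in wild-type pools. The means of both lists overlapped between genotypes. Of the markers, 6 of 10 for microglia and 9 of 10 for interneurons were higher in p300+/-. The part of these lists in the Igf1 value was not tested.

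Igf2, the fetal growth factor that in the adult brain comes mainly from choroid plexus and meninges, was at 0.40, -0.031 and 0.29 in p300+/- pools and at -0.13, -1.05 and 0.031 in wild-type pools (1448152_at). The genotypes overlapped, and the wild-type 2 pool stood far below the other 5. The log2 fold change was 0.60 ± 0.28 (SE), with a 95% interval of -0.059 to 1.27, and 0.27 ± 0.16 without wild-type 2. The other Igf2 probe set, 1415931_at, lay in the lowest level class and gave 0.075 ± 0.12. Igfbp2, a binding protein that carries IGFs in cerebrospinal fluid and is made by choroid plexus, meninges and astrocytes, had the same low pool. It was at 0.20, -0.36 and 0.57 in p300+/- and at -0.070, -1.06 and 0.070 in wild-type pools (1454159_a_at), a log2 fold change of 0.49 ± 0.34 (SE), and 0.13 ± 0.26 without wild-type 2. Without both p300+/- 3 and wild-type 2 it was -0.081, the opposite sign.

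Markers of the choroid plexus, the vascular tissue inside the ventricles whose epithelium secretes cerebrospinal fluid, moved with Igf2 and Igfbp2. All 17 measured markers, of 19 listed and none of them a member, had their lowest value in wild-type 2. Their mean was 0.11, -0.060 and 0.26 in p300+/- pools and -0.13, -2.00 and 0.25 in wild-type pools, a range of -0.060 to 0.26 in p300+/- and of -2.00 to 0.25 in wild-type. Ttr, the transthyretin gene and the defining marker, had 4 probe sets in the highest level class and was at -0.021, 0.088 and 0.0095 in p300+/- pools and at -0.026, -2.47 and 0.11 in wild-type pools. The 12 markers of meninges and fibroblasts had a mean of 0.020, 0.011 and 0.21 in p300+/- and of -0.20, -0.014 and -0.083 in wild-type pools, which did not overlap, and 11 of the 12 were higher in p300+/-. Of these markers 2 were lowest in wild-type 2, among them Slc13a4, a sulfate transporter, at -1.51. The others lay between -0.16 (Ptgds) and 0.40 (Ogn) in that pool. The wild-type 2 mean was thus lowered by Slc13a4, and the separation of the means is not a trait of the list as a whole. In pooled tissue RNA, fewer cells of a type and less RNA per cell cannot be told apart. The values hold no level beyond a coarse class, and whether any marker was absent was not read from them. The part of the choroid plexus and meninges markers in the Igf2 and Igfbp2 values was not tested.

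**Figure D2:**
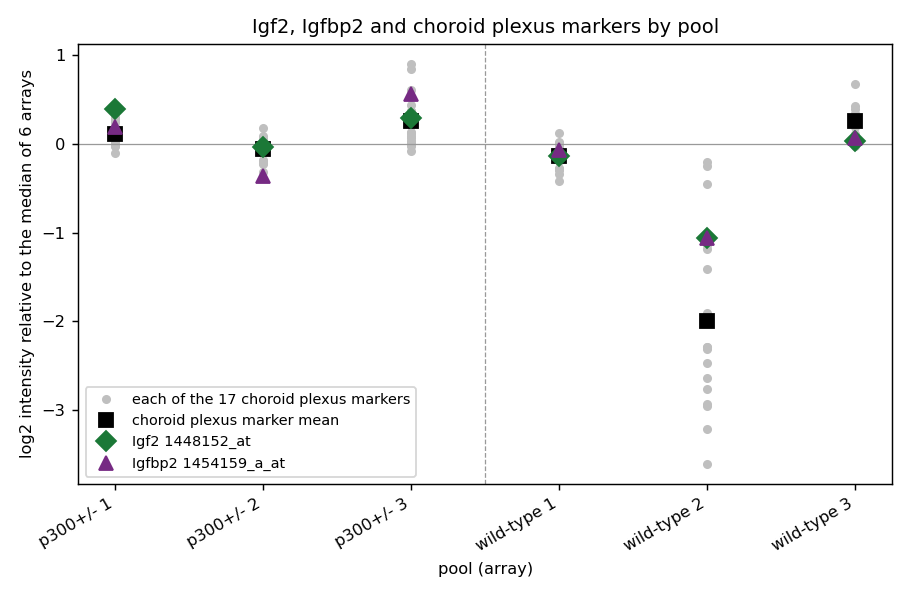
Log2 intensity relative to the probe set's median in each of the 6 pools, for Igf2 (diamonds), Igfbp2 (triangles), each of 17 choroid plexus markers (grey points, mean over a gene's probe sets) and the marker mean (squares). Wild-type 2 is low in all of them, at -1.05 for Igf2, -1.06 for Igfbp2 and -2.00 for the marker mean, while in the other 5 pools these 3 lie between -0.36 and 0.57.

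The remaining IGF binding proteins, which hold IGFs in the extracellular space and control their access to receptors, lay closer to 0. Igfbp7, a secreted protein of vessel walls with low affinity for IGFs, was below all wild-type pools in 1 probe set. There (1423585_at) it was at -0.12, -0.16 and -0.042 in p300+/- and at 0.042, 0.28 and 0.078 in wild-type pools, giving a log2 fold change of -0.24 ± 0.12 (SE; limma, adjusted p = 0.9999). Its other probe sets had the opposite sign, at 0.25 ± 0.18 for 1423584_at and 0.12 ± 0.15 for 1437804_at, so the gene showed no common direction. Igfbp4 was read by 6 probe sets, of which 4 were above 0, from -0.043 to 0.24. Igfbp3 was at -0.18 and -0.15, Igfbp5 at -0.068 and 0.042, and Igfbp6 at 0.14. Of the 15 binding protein probe sets 9 were higher and 6 lower, with a median log2 fold change of 0.081. The mean of 12 endothelial and pericyte markers, of 13 listed, was 0.021, 0.23 and -0.11 in p300+/- and -0.085, -0.12 and 0.13 in wild-type pools, which overlapped.

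The receptors had no probe set with an unadjusted p under 0.05. The 10 probe sets of Igf1r, Igf2r and Insr ran from -0.20 to 0.16, with a median log2 fold change of -0.036. Igf1r encodes the tyrosine kinase receptor of both IGFs, and its 5 probe sets lay between -0.20 and 0.16. Igf2r, the mannose 6-phosphate receptor that takes up and degrades IGF2, was at -0.022 and 0.020, and the first of these had a 95% interval of -0.27 to 0.23. Insr, the insulin receptor, was at 0.064, -0.068 and -0.28 in p300+/- pools and at -0.037, 0.037 and 0.070 in wild-type pools in its probe set with the smallest p (1434446_at). Its log2 fold change there was -0.12 ± 0.13 (SE), and the genotypes overlapped. Neither substrate was called. Irs2, the substrate known for insulin action in liver and brain whose promoter is shown above, was at 0.42, -0.37 and -0.41 in p300+/- and at 0.64, -0.49 and 0.37 in wild-type pools (1443969_at). These values were high in 1 p300+/- and 2 wild-type pools and low in the other 3, and the log2 fold change of -0.30 ± 0.33 (SE) was -0.065 without wild-type 1 and -0.63 without wild-type 2. Irs1 was at -0.029 ± 0.12 (SE), with a 95% interval of -0.30 to 0.25 and all pools between -0.077 and 0.18.

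PI3K is made of a catalytic subunit (Pik3ca or Pik3cb here) and a regulatory subunit (Pik3r1 or Pik3r2) that docks to IRS proteins. Of its 12 probe sets 5 were higher and 7 lower, with a median log2 fold change of -0.030. Pik3ca had the widest spread between pools of all members. In 1429434_at it was at -0.44, 0.0098 and 0.76 in p300+/- pools and at -0.0098, 1.37 and -0.23 in wild-type pools. The highest values were those of wild-type 2 and p300+/- 3, and the log2 fold change of -0.27 ± 0.46 (SE) was smaller than the spread within either genotype. A neighbouring probe set, 1429435_x_at, was at -0.75, -0.13 and 0.42 in p300+/- and at 0.13, 0.87 and -0.34 in wild-type pools, with -0.38 ± 0.37 (SE). The 4 other Pik3ca probe sets spanned 0.27 to 0.57 between their lowest and highest pools, and 1453134_at, with the smallest p of the PI3K group, was at -0.20, 0.046 and -0.049 in p300+/- and at -0.036, 0.036 and 0.37 in wild-type pools (-0.19 ± 0.15, SE). Pik3cb was at -0.0062, Pik3r2 at -0.054, and the 4 probe sets of Pik3r1 lay between -0.18 and 0.21.

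Pdpk1, which encodes PDK1, the kinase that activates AKT and S6K, varied strongly between pools within each genotype. In 1416501_at it was at -0.052, 0.073 and -1.62 in p300+/- pools and at 0.052, -1.63 and 0.17 in wild-type pools. A pool of each genotype, p300+/- 3 and wild-type 2, thus lay about equally far below the other 4. The log2 fold change was -0.066 ± 0.59 (SE), and the genotype means with their spread were -0.53 ± 0.94 in p300+/- and -0.47 ± 1.01 in wild-type pools (SD, n = 3 each). Without both pools it was -0.10 ± 0.13 (SE). The second Pdpk1 probe set, 1415729_at, did not share these low values, at -0.00064, 0.00064 and -0.14 in p300+/- and 0.047, 0.29 and -0.031 in wild-type pools. Akt1, an AKT isoform found in most tissues, was separated in 1440950_at by a small margin. It was at 0.059, 0.12 and 0.0088 in p300+/- and at -0.14, -0.0088 and -0.092 in wild-type pools, giving a log2 fold change of 0.14 ± 0.11 (SE; limma, adjusted p = 0.9999). Its 3 other probe sets were at 0.26, 0.071 and -0.0064, and in the first of these wild-type 2 was at -0.73 while the other pools lay between -0.028 and 0.17. Akt2, the isoform known for insulin-stimulated glucose uptake, was at 0.11, 0.084 and 0.023, and no 95% interval of its probe sets reached beyond 0.40 or below -0.35.

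**Figure D3:**
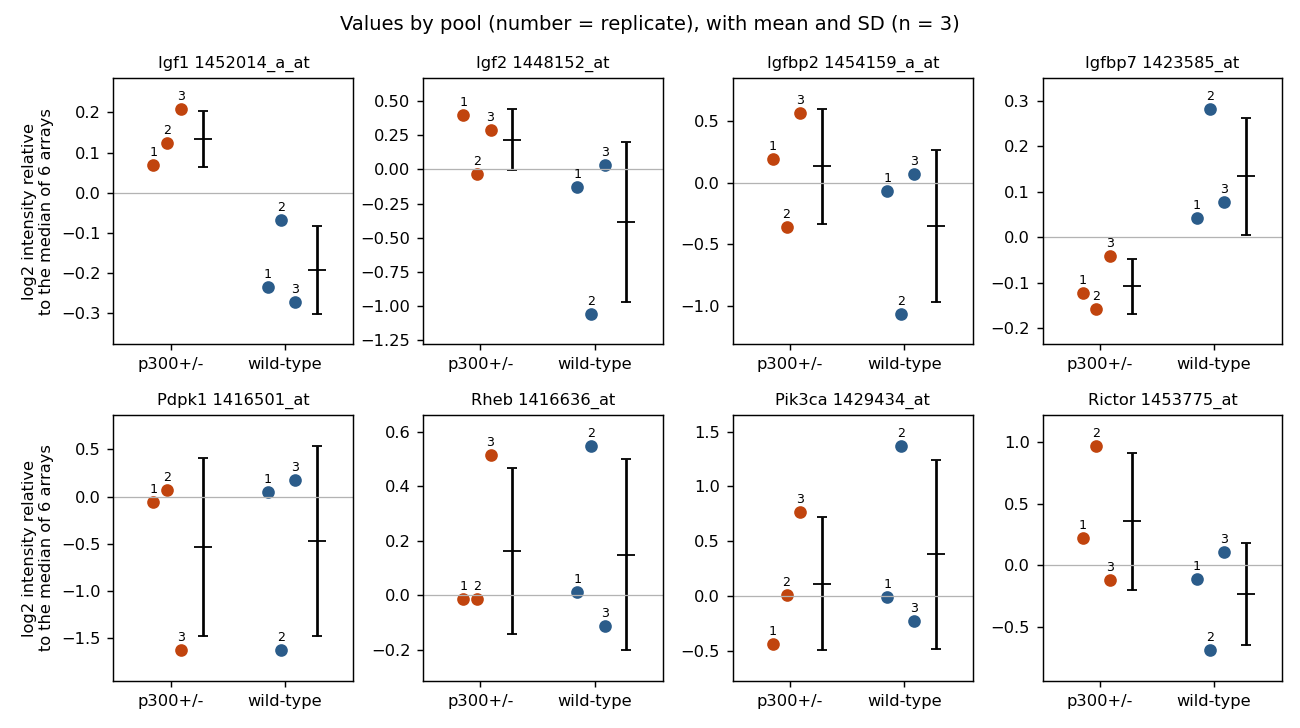
Log2 intensity relative to the median of the 6 arrays for 8 member probe sets, with p300+/- pools on the left and wild-type pools on the right of each panel, points numbered by replicate, and bars for mean and SD (n = 3). The genotypes are separate for Igf1 and Igfbp7, wild-type 2 is low for Igf2 and Igfbp2, and p300+/- 3 and wild-type 2 stand together for Pdpk1 (-1.62 and -1.63), Rheb (0.51 and 0.55) and Pik3ca (0.76 and 1.37).

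The FoxO factors, which turn on genes of stress resistance, cell cycle arrest and catabolism when AKT is inactive, gave 3 higher and 4 lower probe sets. Foxo1 had log2 fold changes of both signs. In 1416983_s_at it was at 0.023, -0.090 and -0.20 in p300+/- pools and at 0.12, -0.023 and 0.29 in wild-type pools (-0.22 ± 0.13, SE), and in 1456529_at it was at -0.043, 0.18 and 0.062 in p300+/- and at 0.043, -0.17 and -0.24 in wild-type pools (0.19 ± 0.13, SE). The mean over the 4 Foxo1 probe sets was 0.00062. Foxo3 was close to 0 in each of its 3 probe sets (-0.030, -0.018 and 0.016), with 95% intervals that lay between -0.45 and 0.38.

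In the TSC complex, the GTPase-activating complex that silences Rheb, the Tsc1 probe set with the smallest p (1455252_at) was at -0.010, -0.24 and 0.010 in p300+/- and at 0.24, 0.046 and -0.020 in wild-type pools (-0.17 ± 0.13, SE). Tsc2 was at 0.076 ± 0.18 (SE). Rheb, the activator of mTORC1, was at -0.014, -0.013 and 0.51 in p300+/- pools and at 0.013, 0.55 and -0.11 in wild-type pools (1416636_at). The same pair of pools that was low for Pdpk1 was high for Rheb, and the log2 fold change was 0.013 ± 0.22 (SE). Mtor, the catalytic subunit of both mTOR complexes, lay between -0.14 and 0.013 in 3 probe sets, and Rptor, the scaffold of mTORC1, between -0.065 and 0.036. Rictor, the scaffold of mTORC2, which phosphorylates AKT, was less uniform. In 1453775_at it was at 0.22, 0.97 and -0.12 in p300+/- and at -0.11, -0.69 and 0.11 in wild-type pools. The high value belonged to p300+/- 2 and the low value to wild-type 2, and the log2 fold change was 0.59 ± 0.31 (SE; limma, adjusted p = 0.9999). It was 0.28 without p300+/- 2 and 0.36 without wild-type 2. The 4 other Rictor probe sets lay between -0.33 and 0.0013, and the mean over all 5 was 0.027. Across them wild-type 2 was at 0.52 in 1435698_at and at -0.69 in 1441753_at, opposite ends of the range for the same gene.

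Among the outputs, the 4E-BPs hold back cap-dependent translation until mTORC1 phosphorylates them. Eif4ebp1 was at 0.038, -0.038 and 0.085 in p300+/- and at -0.10, 0.078 and -0.28 in wild-type pools in 1417562_at (0.13 ± 0.13, SE), and its other probe sets were at 0.14 and -0.17. Eif4ebp2, the 4E-BP that predominates in brain, ran from -0.18 to 0.23 over 5 probe sets. In the AMPK branch the catalytic subunit genes Prkaa1 and Prkaa2 were at -0.18 and at -0.077 to 0.071, and Stk11, which encodes LKB1, was at 0.13 and -0.072. Sesn1, a sestrin that restrains mTORC1 and is induced by p53 and FoxO, was at -0.63, 0.073 and -0.054 in p300+/- and at -0.099, 0.54 and 0.054 in wild-type pools (1438931_s_at). The genotypes overlapped, p300+/- 1 being low and wild-type 2 high, and the log2 fold change of -0.37 ± 0.23 (SE) was -0.16 without p300+/- 1 and -0.18 without wild-type 2. The other Sesn1 probe sets were at -0.21, -0.075 and 0.059. Sesn2, a sestrin induced by amino acid and other stress, was at 0.31 ± 0.27 and 0.014 ± 0.14 (SE), and in the first of these wild-type 2 was at -0.91.

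Read array by array, the members stood out most in wild-type 2. Wild-type 2 was the array farthest from the probe set's median in 48 of the 97 members (49.5%), beside 29.2% of all probe sets, and p300+/- 3 was so in 17 (17.5%, beside 23.6%). In wild-type 2, 23 members (23.7%) lay more than 0.5 from their median, 17 below and 6 above, beside 10.6% of all probe sets. The counts were 4, 1 and 6 in p300+/- pools 1 to 3 and 2 and 1 in wild-type 1 and 3. The members are not independent, as probe sets of a gene share transcripts, so these shares carry no test. Members also lay more often in the highest level class (40 of 97, beside 12320 of all 45037), and shares within a class were not compared.

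**Figure D4:**
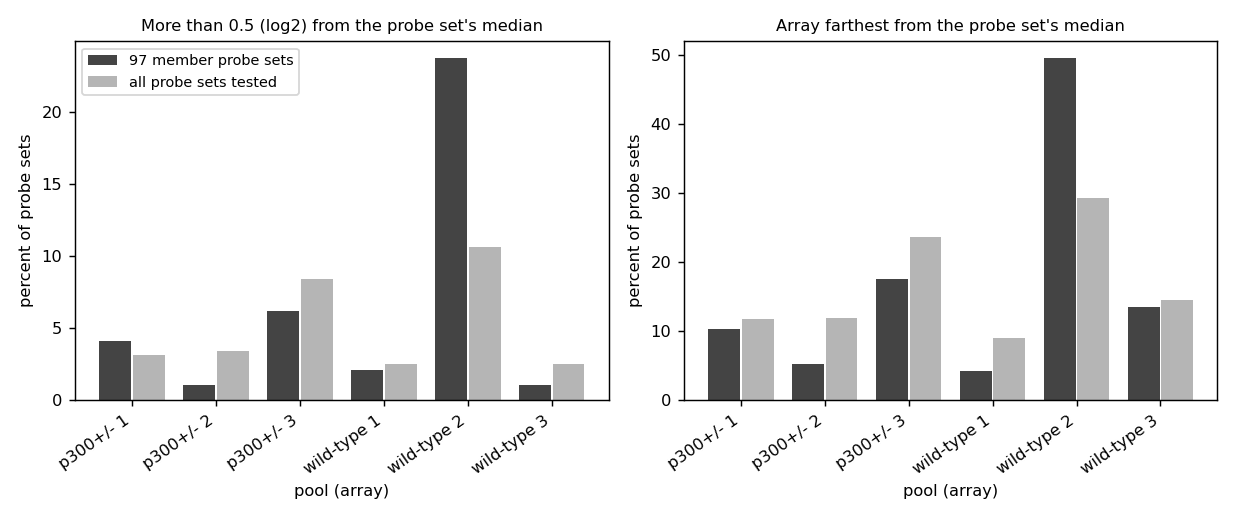
Percent of probe sets in each pool that lay more than 0.5 (log2) from their median over the 6 arrays (left), and percent for which that pool was the farthest from the median (right), for the 97 members (dark bars) and all 45037 probe sets (light bars). Wild-type 2 holds 23.7% and 49.5% of the members, beside 10.6% and 29.2% of all probe sets.

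Over the 97 member probe sets the values of p300+/- 3 and wild-type 2 correlated positively (Pearson r = 0.57, and 0.55 over all probe sets), as did those of p300+/- 1 and wild-type 1 (r = 0.42, and 0.45 over all). Between p300+/- 1 and wild-type 2 the correlation was -0.58 (-0.39 over all). Within a genotype, it was between -0.37 and -0.14 among p300+/- pools and between -0.52 and 0.21 among wild-type pools. These are correlations across probe sets, which share the arrays and the subtraction of a common median, and they are given as a description. The mean of the 14 hippocampal neuron markers was lowest in p300+/- 3 and wild-type 2, where 10 of the 14 were below 0 in both pools and Spink8, Neurod6 and Bok were above 0 in both. The means were 0.015, -0.00063 and -0.28 in p300+/- and -0.0091, -0.18 and 0.087 in wild-type pools. The mean of 6 blood markers, of 7 listed, was -0.12, 0.14 and 0.54 in p300+/- and -0.15, 0.16 and -0.27 in wild-type pools. The mean of 9 astrocyte markers was -0.047, -0.055 and 0.13 in p300+/- and -0.038, 0.032 and 0.031 in wild-type pools, and that of 9 oligodendrocyte markers, of 10 listed, was 0.12, 0.041 and 0.091 in p300+/- and -0.028, -0.23 and 0.049 in wild-type pools. The part of these lists in the members' values was not tested.

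**Figure D5:**
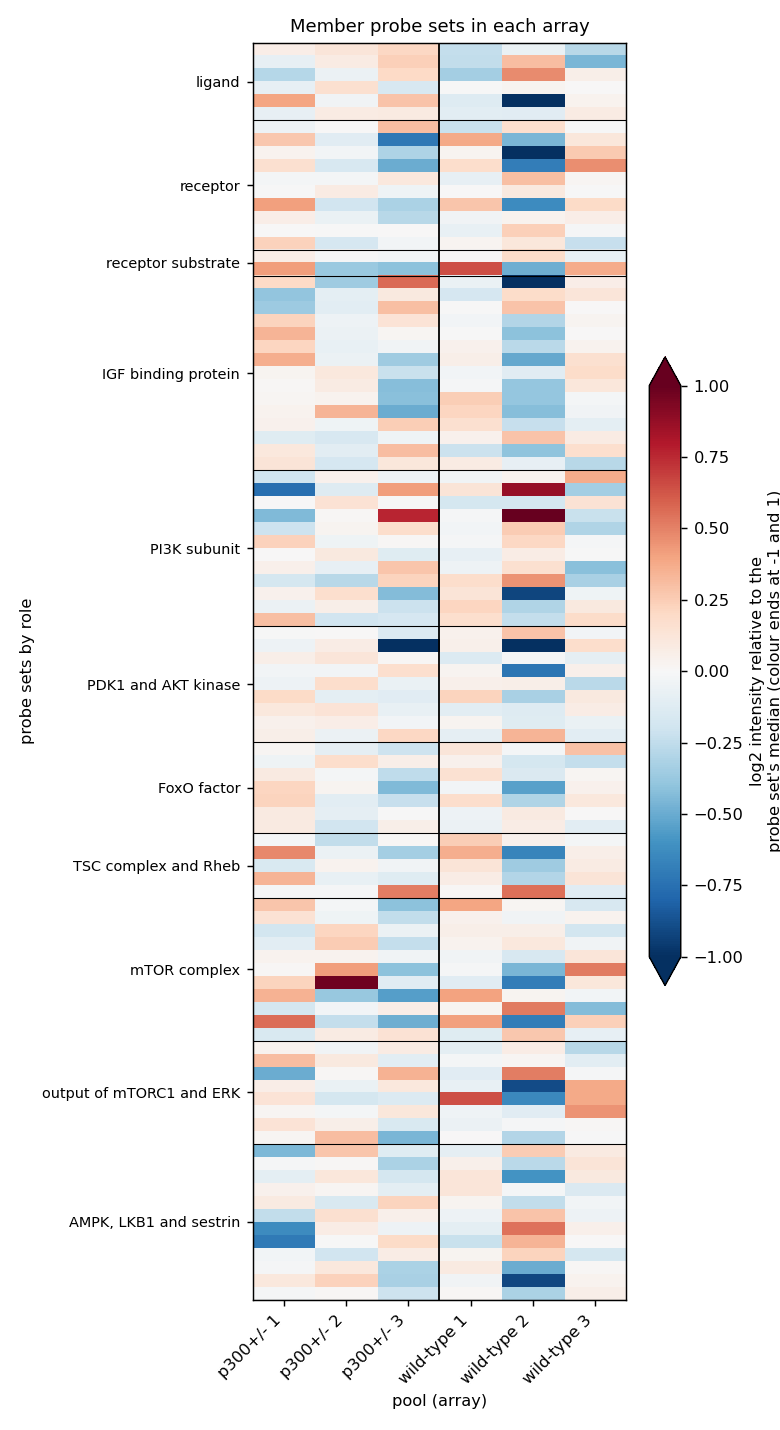
Log2 intensity of the 97 member probe sets (rows, grouped by role) relative to each probe set's median, in the 3 p300+/- pools (left) and the 3 wild-type pools (right), with colours ending at -1 and 1. Strong colours of either sign gather in wild-type 2 and, in some rows, in p300+/- 3. The 2 pools have the same sign for Pdpk1 1416501_at, Rheb 1416636_at and Pik3ca 1429434_at. They have opposite signs for Igfbp2 1454159_a_at, at 0.57 in p300+/- 3 and -1.06 in wild-type 2.

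Other genes of the pathway were taken from a list of 70, of which 63 were measured by 149 probe sets. None was called, 74 had higher and 75 lower values, and the median log2 fold change was -0.0034. At an unadjusted p under 0.05 there were 7 (4.70%, beside 1.22% of all probe sets), 6 higher and 1 lower, and in 18 (12.1%, beside 5.39%) the genotypes did not overlap, 11 higher and 7 lower. This list was chosen with earlier results of these data known, so its shares carry no test. Of the 7, the lower probe set and 1 of the 6 higher were both of Cab39l. Shc1, an adaptor that links receptors to Ras, was at 0.12, 0.20 and 0.18 in p300+/- and at -0.12, -0.16 and -0.24 in wild-type pools, giving a log2 fold change of 0.34 ± 0.11 (SE). Sgk3, a PI3K-dependent kinase related to AKT, was at 0.054, 0.28 and 0.33 in p300+/- and at -0.20, -0.11 and -0.054 in wild-type pools (0.35 ± 0.12, SE). Both were higher in all 3 p300+/- pools than in any wild-type pool, and neither was called (limma, adjusted p = 0.9999). Further probe sets gave 0.21 ± 0.13 for Shc1 and 0.17 ± 0.12 and 0.045 ± 0.11 (SE) for Sgk3. Akt1s1, whose product PRAS40 inhibits mTORC1 until AKT phosphorylates it, was at 0.090, 0.022 and 0.53 in p300+/- and at -0.022, -0.74 and -0.30 in wild-type pools (0.57 ± 0.22, SE). This was 0.37 without wild-type 2 and 0.22 without both p300+/- 3 and wild-type 2, and the 2 other Akt1s1 probe sets gave 0.29 ± 0.14 and 0.036 ± 0.18 (SE). Prr5, a component of mTORC2, was at 0.35 ± 0.14, and Nprl3, a subunit of the GATOR1 complex that restrains mTORC1 when amino acids are scarce, at 0.44 ± 0.17 (SE). Cab39l, a partner of LKB1, had a higher probe set (1449966_s_at, 0.46 ± 0.17) and a lower probe set in the lowest level class (1446539_at, -0.28 ± 0.11, SE), with 0.31 and -0.15 in the 2 others, and it also stood on the choroid plexus list.

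Known targets of FoxO factors that are not members comprised 20 genes, all measured, with 48 probe sets. Igfbp1 and Sesn3 were also on the list of other pathway genes, so the lists are not separate. Igfbp1 1418918_at, lower in p300+/- without overlap but in the lowest level class, is counted in both. Again none was called, 23 had higher and 25 lower values, and the median log2 fold change was -0.030. Only Txnip (1415997_at) and Ccng2 (1448364_at) had an unadjusted p under 0.05 (4.17%, beside 1.22% of all probe sets), and the genotypes did not overlap in 5 (10.4%, beside 5.39%), 2 higher and 3 lower. The FoxO targets too were chosen with earlier results of these data known, so their shares carry no test. Txnip, which encodes an inhibitor of thioredoxin and of glucose uptake, is the probe set with the smallest p of the table. It was at 0.42, 0.57 and 0.37 in p300+/- and at -0.38, -0.37 and -0.50 in wild-type pools, giving a log2 fold change of 0.87 ± 0.11 (SE; limma, adjusted p = 0.9999). Ccng2, the cell cycle inhibitor cyclin G2, was at 0.13, 0.43 and 0.067 in p300+/- and at -0.15, -0.067 and -0.092 in wild-type pools, or 0.31 ± 0.13 (SE). The second probe set of each gene was weaker or of the other sign, at 0.37 ± 0.23 for Txnip and -0.042 ± 0.16 (SE) for Ccng2.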

How the data were processed

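Gene expression was measured in 6 pools of hippocampal RNA, 3 per genotype, each pool from 4 animals. The authors normalized the arrays in GeneSpring GX, per the labels' protocols, which do not give the version or the summarization. The deposited log2 values are differences from each probe set's median (0 within 1e-06 for all 45101 rows). The log base is not stated and was taken as 2 because 98.6% of probe sets lay on the binary grids that log2 intensities in single precision leave. Those grids also gave level classes (8 to 16, 4 to 8, 2 to 4), assigned correctly in 99.3% of 18352 simulated probe sets. Simulated probe sets whose values fell in more than 1 class had been left out, so probe sets near a class border were not checked. After 64 control probe sets were left out, the platform annotation gave 34945 probe sets 1 symbol, 932 several and 9160 none, and 34741 symbols of the 34945 were found in RefSeq (GRCm38.p6). Both genotypes were fitted with limma 3.58.1 in R 4.3.3 (lmFit, eBayes, two-sided, no covariates, no filter), with Benjamini-Hochberg adjustment over 45037 probe sets. The script was tested on simulated data. Only 3 arrays per genotype limit the precision, and p-values measure the spread between pools. An exact permutation test of 3 against 3 cannot give a two-sided p below 0.1.

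The members, lists and tests were chosen with earlier results of these data known. Values are given for member probe sets with an unadjusted p under 0.05 or without overlap, for the smallest p of each role, for the 5 widest ranges, and for other pathway genes with an unadjusted p under 0.05. Igf2 and Rheb were added after their values were seen. The remaining probe sets of the members are given by their log2 fold changes or ranges. Marker means are over genes, each gene being the mean of its probe sets. Other settings were quantile normalization, median centring, the replicate number as a block, array weights, robust moderation, filters on probe sets and level classes, gene means, a threshold of 0.1, and arrays left out. Moderation with a trend on the mean was not used, since centred values hold no level beyond a coarse class. Figures were drawn with matplotlib 3.10.9.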

Additional observations from a re-analysis of the deposited data

How the results depend on the processing

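No probe set of the table, of the members or of the other lists was called under any setting run, including a threshold of 0.1, and the smallest adjusted p in the table was 0.9738, with wild-type 2 left out (limma). The median log2 fold change of the members stayed between -0.027 and 0.047. The count of members with an unadjusted p under 0.05 was 1, and it was 0 with p300+/- 2 or wild-type 1 left out, within the level class from 8 to 16 and for gene means, 2 with p300+/- 1 or wild-type 3 left out, and 3 with wild-type 2 or both p300+/- 3 and wild-type 2 left out. Over all probe sets that count was 550, and 1632 with array weights, 1095 without p300+/- 1, 1151 without wild-type 2 and 1075 without both pools. It was 93 of 12320 probe sets in the level class from 8 to 16 and 171 of 18193 gene means. For other pathway genes it was 7 and ran from 2 to 9, and for FoxO targets it was 2 and ran from 0 to 7. The Igf1 probe set 1452014_a_at kept its sign in all settings (0.098 as a gene mean and up to 0.39). As a probe set it had an unadjusted p of 0.00715 to 0.0762 and above 0.05 without p300+/- 2, p300+/- 3, wild-type 1 or wild-type 3 and with the replicate block (limma). Ep300 stayed between -0.72 and -0.55. Signs changed for Igfbp2 (-0.081 without both pools), Igfbp7 (0.043), Foxo1 (0.00062) and the lower Cab39l probe set (0.086), the last 3 with gene means, and with arrays left out in turn for Pik3ca 1429434_at (-0.59 to 0.23), Pdpk1 1416501_at (-0.65 to 0.48) and Rheb (-0.16 to 0.21). Without a sign change, leaving out arrays moved the log2 fold changes of Insr 1434446_at (-0.20 to -0.025), Tsc1 1455252_at (-0.23 to -0.090), Eif4ebp1 1417562_at (0.040 to 0.22), Pik3ca 1453134_at (-0.27 to -0.068) and 1429435_x_at (-0.66 to -0.051), Nprl3 (0.27 to 0.57), Prr5 (0.23 to 0.45) and the higher Cab39l probe set (0.29 to 0.55). Of the 97 members 34 kept their sign with each of the 6 arrays left out. The cause was not tested. Whether replicate numbers pair the pools cannot be settled from these values. Deviations from the genotype means correlated at 0.61, -0.23 and -0.47 for numbers 1 to 3, and p300+/- 3 correlated best with wild-type 2 (0.65). With the replicate block 0 probe sets were called, and 604 of all and 3 of the member probe sets (Igf2, Igfbp2, Sesn1) had an unadjusted p under 0.05. The filter on level classes could not be applied to probe sets without a class, and absolute levels were not read.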
